A study of Mus musculus with 22 samples.

Results

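Immediate early genes are the genes that a cell switches on first when a signal or a disturbance reaches it, and 10 of them were followed here in mouse embryonic stem cells given chromatin inhibitors. They were taken by name from the table of gene expression values: Fos, Fosb, Jun, Junb, Egr1, Ier2, Ier3, Dusp1, Zfp36 and Klf6. All 10 were among the 18487 genes of the table, and all 10 passed the filter on low values that left 17275 genes for testing. The cells were of the E14 line, a widely used line of mouse embryonic stem cells, and the 22 libraries fell into 11 groups of 2 replicates. A group had been given Bromosporine, CPTH2, Chaetocin, DZNep, Garcinol, IOX1, MS023, OICR, UNC0379 or Valproate, or was labelled NC, which served as the reference. Neither dose nor time of treatment was given in the labels, and no genetic change was named for any group. The labels do not say whether the 2 replicates came from separate cultures, so p-values measure the spread between these libraries, which may be technical.

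The transcription of these genes needs no new protein. Signals that run through the kinases ERK, p38 and JNK act on factors already bound at their promoters, among them SRF with its ternary complex partners and CREB, and the messages made are short-lived because AU-rich elements mark them for decay. Fos, Fosb, Jun and Junb encode subunits of the dimeric transcription factor AP-1, Egr1 and Klf6 encode zinc finger transcription factors, and Dusp1 and Zfp36 act as brakes, Dusp1 by removing phosphate from the kinases and Zfp36 by binding AU-rich messages and hastening their decay. Such genes are known to respond to a change of medium, to serum and to the handling of cells as well as to drugs.

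Of the compounds, Bromosporine blocks bromodomains, CPTH2 and Garcinol block histone acetyltransferases, Valproate blocks histone deacetylases, Chaetocin and UNC0379 block histone lysine methyltransferases, IOX1 blocks 2-oxoglutarate oxygenases such as the JmjC demethylases, and MS023 blocks arginine methyltransferases. DZNep blocks S-adenosylhomocysteine hydrolase, on which methylation in general depends, and for OICR only the label was used.

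The values were read counts that had been normalized to a common distribution and rounded to whole numbers, so depth is unknown and no counting interval could be given. The 12 pluripotency genes checked as markers, among them Pou5f1, Nanog and Sox2, summed to between 215457 and 317308 in each of the 22 libraries. Of 10 fibroblast markers, Dcn was at 0 in all libraries and Lum at 0 in both NC and both DZNep libraries, while their sum ran from 216 to 2362 and was 934 and 1741 in the NC libraries, 1998 and 2362 with DZNep and 1794 and 1867 with Valproate. Among the 9 tested fibroblast markers limma called Thy1 (12 and 11 in NC, 358 and 303 with Valproate, 66 and 64 with DZNep), Lum with Valproate (197 and 331), and Col1a1 (24 and 24 in NC, 327 and 228 with DZNep, 7 and 6 with Bromosporine). With DZNep the pluripotency genes Utf1, Zfp42 and Tbx3 and the lineage gene Eomes were called higher, and the lineage genes Gata4 and Sox1 lower. With Valproate Utf1 was called higher and Sox1 lower. Such calls were not particular to these compounds. Utf1 was also called higher with Bromosporine (log2 change 1.55) and OICR (1.39), and Sox1 lower with MS023 (-1.37). Bromosporine further gave a call of Eomes as higher (1.33) and of the lineage gene Hand1 as lower (-2.82). The part of these markers in the results was not tested, and in bulk RNA fewer cells of a type cannot be told apart from less RNA per cell. A further limit concerns low values. The 573 olfactory and vomeronasal receptor genes in the table, which stem cells are not known to use, had a median value between 12 and 20 in each library. Their transcripts had a median GC content of 37.7%, below that of every member (42.4% to 62.6%), and the 32 of them within the members' range had a median of 35.5 in their mean values over the libraries. At or below 35.5 lay 21 of the 22 values of Fosb, 21 of Egr1 and 10 of Fos, so values of this size are no sign of expression by themselves. The value of 35.5 is not a floor of the table. Of the 13651 genes in the members' GC range, 135 stood at 0 in all 22 libraries.

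The members covered a wide range of levels (the plot of values by group and replicate). Per kilobase of the principal transcript, in NC, Ier2 stood highest at 2536 normalized counts per kb, and Dusp1 followed at 1143 and Junb at 467. Ier2 encodes a small nuclear protein of which little is known beyond its rapid induction. Zfp36 stood at 187, Klf6 at 139 and Ier3, a stress-induced regulator of cell survival, at 91.5 normalized counts per kb. The classic members were the lowest: Jun stood at 42.3, Fos at 13.3, Egr1 at 4.68 and Fosb at 1.98 normalized counts per kb.

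**Figure D1:**
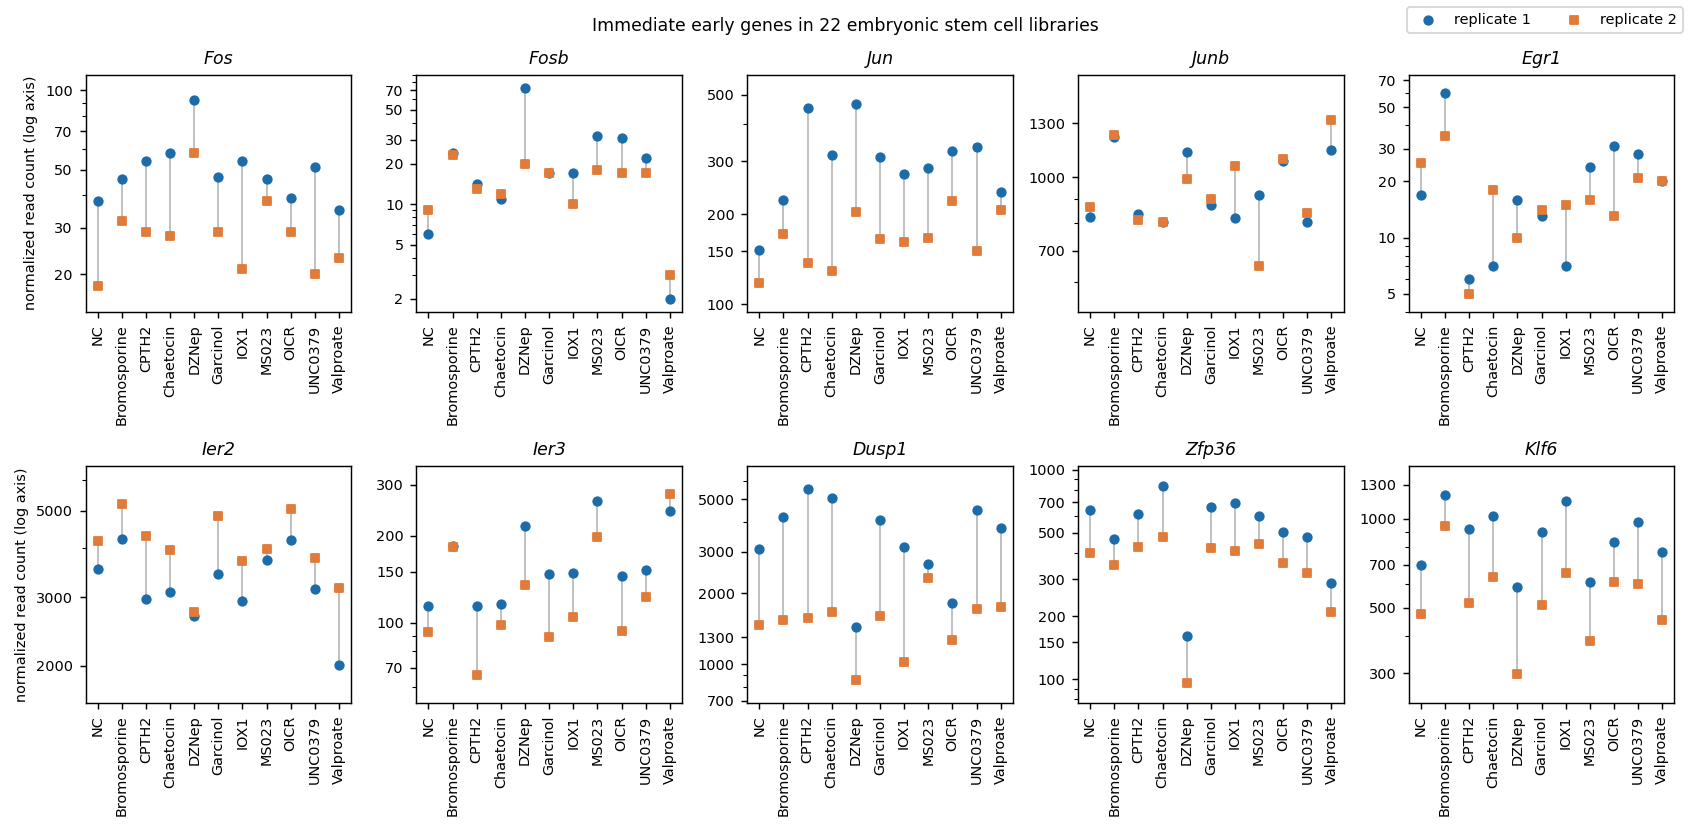
Normalized read count (log axis, different in each panel) of the 10 immediate early genes in each group, with replicate 1 as a blue circle and replicate 2 as an orange square joined by a grey line. For Dusp1, Fos, Jun, Klf6 and Zfp36 the circle lies above the square in 11 of 11 groups, for Ier2 below it in 11 of 11.

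With DZNep, Fosb was higher and Zfp36 lower than in NC. Zfp36, whose protein is also called tristetraprolin, lies on chromosome 7 at 28376784 to 28380253 on the minus strand (mm10). It was at 645 and 399 normalized counts in NC replicates 1 and 2, and at 160 and 96 with DZNep, so that the groups did not overlap. The log2 change was -2.02 (SE 0.40), a 4.07-fold fall (Benjamini-Hochberg adjusted p by limma, 0.0026). Both replicates showed it to the same extent, at -2.004 between the libraries numbered 1 and -2.044 between those numbered 2. DZNep gave the lowest Zfp36 of the 11 groups, at a mean of 128 ± 45.3 (SD, n = 2), and its range did not overlap that of Valproate, the next in order, at 249.5 ± 55.9 (SD, n = 2).

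Fosb, which lies on chromosome 7 at 19302696 to 19310051 on the minus strand, was at 6 and 9 normalized counts in NC, against 73 and 20 with DZNep. The log2 change was 2.24 (SE 0.55), or 4.71-fold on the log2(value + 1) scale (Benjamini-Hochberg adjusted p by limma, 0.00944). The DZNep libraries differed from each other by more than the second of them differed from NC, since the change was 3.40 between the libraries numbered 1 and 1.07 between those numbered 2. Without DZNep replicate 1 the log2 change was 1.33 and the limma adjusted p 0.105, and without NC replicate 1 they were 1.98 and 0.0840, so the call was lost without either of these libraries (the library that remains is taken to vary like the other groups). The NC values and that of DZNep replicate 2 lay below the receptor gene median of 35.5 given above. DZNep replicate 1, at 73, was the only Fosb library of the 22 above it.

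In all, 2 of the 10 members were called with DZNep, 1 in each direction, where a call needs an adjusted p under 0.05 and a fold change over 2. Over all tested genes 11.4% were called with this compound, 5.27% higher and 6.14% lower. In the model of group means alone, which leaves the replicate number out, the count of members, out of 10, was thus not far from the background. The other AP-1 genes were not called in this model. Fos was at 38 and 18 in NC, against 92 and 58 with DZNep (log2 change 1.44, SE 0.59, limma adjusted p 0.0930), and its DZNep libraries were the highest of their number. Jun was at 152 and 118 in NC, against 468 and 203 with DZNep (log2 change 1.20, SE 0.62, limma adjusted p 0.179). Dusp1, at 3088 and 1460 in NC, was at 1434 and 855 with DZNep, the lowest of the 11 groups. Its log2 change in this model was -0.94 (SE 0.81, limma adjusted p 0.437). Between the libraries numbered 1 it was -1.11, and between those numbered 2 it was -0.77. The median log2 change of the 10 members was -0.07, beside -0.04 over all tested genes.

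With Valproate, Ier3 was higher than in NC. The gene lies on chromosome 17 at 35821684 to 35822923 on the plus strand and was at 114 and 93 normalized counts in NC, against 244 and 279 with Valproate. The log2 change was 1.33 (SE 0.34), a 2.52-fold rise (Benjamini-Hochberg adjusted p by limma, 0.023). It was 1.09 between the libraries numbered 1 and 1.57 between those numbered 2, and Valproate gave the highest mean of the 11 groups. The MS023 libraries, at 264 and 198, overlapped those of Valproate, while the log2 change of 1.14 (SE 0.34) with MS023 was not called at a limma adjusted p of 0.114. The call with Valproate was lost when any 1 of the 4 NC and Valproate libraries was left out, with limma adjusted p from 0.0720 to 0.139 and log2 changes from 1.19 to 1.48.

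In the model of group means alone, Ier3 was the only member of the 10 called with Valproate. Over all tested genes 5.28% were called, 2.73% higher and 2.55% lower. Junb, at 823 and 865 in NC and 1143 and 1318 with Valproate, passed the test with a limma adjusted p of 0.0357, but its log2 change of 0.54 (SE 0.15) was under the fold required. Zfp36 was at 289 and 210 with Valproate, below both NC libraries, with a log2 change of -1.04 (SE 0.40) and a limma adjusted p of 0.124. Fosb was at 2 and 3, the lowest values of the gene in the series, with a log2 change of -1.27 (SE 0.55, limma adjusted p 0.172). Ier2 was at 2004 and 3167 against 3540 and 4181 in NC (log2 change -0.61, SE 0.25, limma adjusted p 0.142). The median log2 change of the 10 members was 0.07, beside -0.02 over all tested genes.

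**Figure D2:**
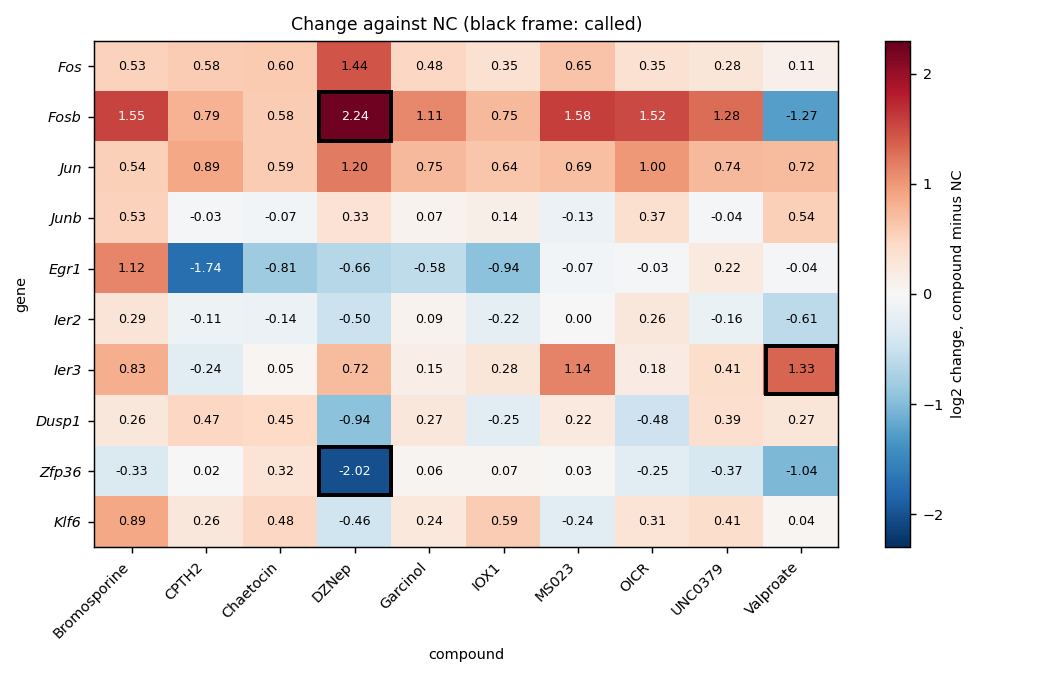
Log2 change of each of the 10 immediate early genes (rows) with each of the 10 compounds (columns) against NC, on the log2(value + 1) scale, red for higher and blue for lower, with a black frame where the gene was called. The frames stand at Fosb (2.24) and Zfp36 (-2.02) with DZNep and at Ier3 (1.33) with Valproate.

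With the other 8 compounds none of the 10 members was called by limma in the model of group means alone. At an unadjusted limma p under 0.05 there were 3 of the 10 members with Bromosporine, beside 19% of all tested genes. There were 2 with MS023, beside 15%, and 2 with OICR, beside 10.7%. There was 1 with CPTH2, beside 0.944%, and 1 with UNC0379, beside 6.08%. There were 0 with IOX1, beside 12.4%, 0 with Chaetocin, beside 4.72%, and 0 with Garcinol, beside 3.62%. By the full rule, over all tested genes, 3.34% were called with Bromosporine, 0.973% with MS023, 0.388% with OICR, 0.116% with IOX1, 0.0174% with Chaetocin, 0.00579% with CPTH2, 0.00579% with Garcinol and 0% with UNC0379. No other tool was run, since the values are not counts.

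The largest change among these was that of Egr1, the zinc finger factor on chromosome 18. It was at 17 and 25 normalized counts in NC, against 6 and 5 with CPTH2 (log2 change -1.74, SE 0.54, limma adjusted p 1), and at 60 and 35 with Bromosporine (log2 change 1.12, SE 0.54, limma adjusted p 0.293). CPTH2 gave the lowest and Bromosporine the highest Egr1 library within each replicate number, and neither group overlapped its neighbour in the order of levels. The CPTH2 values lay below the receptor gene medians and the NC values near them. Junb was at 1215 and 1228 with Bromosporine, above both NC libraries, with a log2 change of 0.53 (SE 0.15) and a limma adjusted p of 0.0579. Ier3 was at 184 and 183 with the same compound (log2 change 0.83, SE 0.34, limma adjusted p 0.193).

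Fosb was above both NC libraries (6 and 9) with each of these 8 compounds. How often this held for other genes was not counted. All Fosb values with these compounds lay below 35.5, the median of the receptor genes in the members' GC range. Fosb was at 24 and 23 with Bromosporine, 32 and 18 with MS023, 31 and 17 with OICR and 22 and 17 with UNC0379. It was at 17 and 17 with Garcinol, 14 and 13 with CPTH2, 17 and 10 with IOX1 and 11 and 12 with Chaetocin, with log2 changes from 0.58 to 1.11. For the first 4 the log2 changes were 1.55, 1.58, 1.52 and 1.28, each with an SE of 0.55, and the limma adjusted p-values ran from 0.127 to 0.791. The NC libraries enter every one of these comparisons. NC had the lowest mean of the 11 groups for Fos (28 ± 14.1, SD, n = 2) and for Jun (135 ± 24.0, SD, n = 2), and the second lowest for Fosb and Ier3. For the others it ranked 3 from the lowest (Klf6), 4 (Dusp1), 5 (Junb), 7 (Zfp36) and 8 (Egr1 and Ier2). A compound's higher Fos, Fosb or Jun is thus measured from the bottom of the order, and the 10 comparisons are not independent of each other.

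The remaining members took different orders over the compounds. Klf6 was highest with Bromosporine, at 1207 and 942 against 695 and 478 in NC, above both NC libraries (log2 change 0.89, SE 0.46, limma adjusted p 0.333), and lowest with DZNep, at 589 and 298. Ier2 was also highest with Bromosporine, at 4234 and 5217, followed by OICR, at 4207 and 5065, and all 4 of these libraries lay above the NC libraries of 3540 and 4181. DZNep and Valproate gave the lowest Ier2, with DZNep at 2687 and 2742 (log2 change -0.50, SE 0.25, limma adjusted p 0.159). Zfp36 was highest with Chaetocin, at 836 and 477, a range that overlapped that of NC. Jun was at 325 and 222 with OICR, above both NC libraries (log2 change 1.00, SE 0.62, limma adjusted p 0.648). Dusp1 was highest with CPTH2, where its libraries stood at 5545 and 1570 and so spanned both NC libraries. None of these changes passed the test in the model of group means alone. Neither the order of Klf6 nor that of Dusp1 held a pair of neighbouring groups without overlap.

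When the 11 groups were compared together, without leaning on NC, 5 of the 10 members varied by the limma F test at a Benjamini-Hochberg adjusted p under 0.05, beside 29.7% of all tested genes. They were Fosb (limma F test adjusted p 0.0112), Zfp36 (0.0134), Junb (0.0164), Ier3 (0.0293) and Egr1 (0.0479). Junb spanned a narrow range, from a mean of 784.5 ± 190.2 (SD, n = 2) with MS023 to 1230.5 ± 123.7 (SD, n = 2) with Valproate. Fos (limma F test adjusted p 0.695), Jun (0.905), Dusp1 (0.838), Klf6 (0.428) and Ier2 (0.124) did not pass in this model of group means alone, which leaves the replicate number out. In the order of their 11 group means, the ranges of the 2 libraries overlapped between all 10 pairs of neighbours for Fos, Dusp1 and Klf6, and between 9 for Jun, Ier2 and Ier3, 8 for Junb and Zfp36, 7 for Egr1 and 6 for Fosb.

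All 5 members that did not pass the F test differed between the 2 replicate numbers. Dusp1, the phosphatase gene on chromosome 17, showed it most. Its 6 annotated transcripts together span 26505590 to 26562128 on the minus strand, and the RefSeq start used below for its promoter lies within that span. In replicate 1 Dusp1 ran from 1434 (DZNep) through a median of 3772 to 5545 (CPTH2). In replicate 2 it ran from 855 (DZNep) through a median of 1570 to 2313 (MS023). It was lower in replicate 2 in 11 of 11 groups. With group in the model, the log2 difference, replicate 2 minus replicate 1, was -1.17 (SE 0.14), or 2.25-fold (Benjamini-Hochberg adjusted p by limma, 3.61e-05). The fit takes the 11 groups as independent, so its SE and p measure how steady a difference was over these groups. They do not measure a difference repeated in further sets of libraries, and this holds for every comparison of replicate numbers here. The gap was widest with CPTH2, at 5545 and 1570, and narrowest with MS023, at 2659 and 2313, as log2 differences of -1.82 and -0.20.

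Jun ran from 152 through a median of 310 to 468 in replicate 1 and from 118 through 165 to 222 in replicate 2, and was lower in replicate 2 in 11 of 11 groups. The log2 difference was -0.84 (SE 0.13, limma adjusted p 0.000207). Fos ran from 35 through 47 to 92 in replicate 1 and from 18 through 29 to 58 in replicate 2, with a log2 difference of -0.79 (SE 0.12, limma adjusted p 0.000214) and 11 of 11 groups lower. Klf6, the Krüppel-like factor gene on chromosome 13, ran from 589 through a median of 899 to 1207 in replicate 1 and from 298 through 521 to 942 in replicate 2. Its log2 difference was -0.69 (SE 0.06, limma adjusted p 6.72e-06), again in 11 of 11 groups. Zfp36 ran from 160 through 603 to 836 in replicate 1 and from 96 through 399 to 477 in replicate 2. It had a log2 difference of -0.59 (SE 0.05, limma adjusted p 6.72e-06), with little spread between groups, from -0.42 to -0.81, and 11 of 11 groups lower.

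Ier3 was lower in replicate 2 in 10 of 11 groups, with Valproate as the exception, at a log2 difference of -0.40 (SE 0.09, limma adjusted p 0.00308). Ier2 went the other way. It ran from 2004 through a median of 3149 to 4234 in replicate 1 and from 2742 through 3980 to 5217 in replicate 2. It was higher in replicate 2 in 11 of 11 groups, and the log2 difference was 0.33 (SE 0.05, limma adjusted p 0.000336). Fosb, Egr1 and Junb did not pass, at log2 differences of -0.33 (SE 0.22, limma adjusted p 0.215), -0.08 (SE 0.23, adjusted p 0.792) and 0.00 (SE 0.06, adjusted p 0.972). Among the AP-1 genes, Fos and Jun were thus lower in replicate 2, while Junb was at 950.5 ± 158.7 (SD, n = 11) in replicate 1 and 959.5 ± 199.1 (SD, n = 11) in replicate 2; whether the genes differ from each other in this was not tested.

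**Figure D3:**
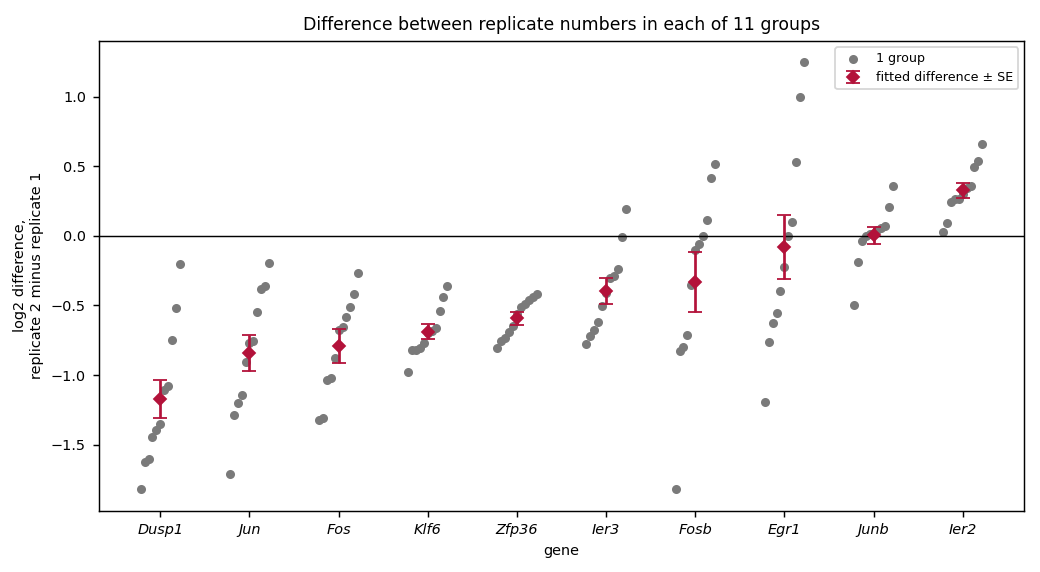
Log2 difference between replicate 2 and replicate 1 (vertical axis) for each gene (horizontal axis), with 1 grey point for each of the 11 groups and the fitted difference with its SE as a red diamond. The diamonds run from -1.17 for Dusp1 to 0.33 for Ier2, and the points of Dusp1, Jun, Fos, Klf6 and Zfp36 all lie below 0.

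Many genes differed between the replicate numbers, so these differences were read against all genes. At an adjusted p under 0.05, 7 of the 10 members differed between the numbers, beside 52.6% of all tested genes, and 6 were lower in replicate 2, beside 22.8%. With a fold over 2 required as well, Dusp1 was the 1 member called, beside 4.04% of all tested genes. Of the members, 5 were lower in replicate 2 in 11 of 11 groups, beside 8.75% of all tested genes. The median log2 difference of the 10 members was -0.49 and that of all tested genes 0.03, while the 366 receptor genes tested had a median of 0.42, higher in replicate 2. The labels do not say what a replicate number stands for (a day, a batch or a passage), and what sets the numbers apart was not tested.

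**Figure D4:**
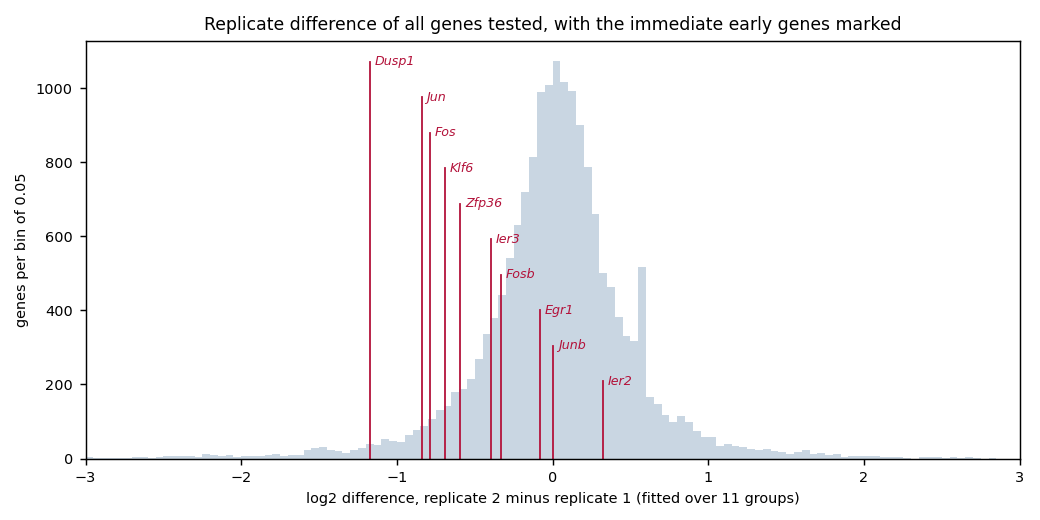
Histogram of the fitted log2 difference, replicate 2 minus replicate 1, of the 17275 tested genes (horizontal axis, log2; vertical axis, genes per bin of 0.05; 90 genes lie beyond the axis), with a red line for each of the 10 immediate early genes, whose height carries no value. Dusp1 (-1.17), Jun (-0.84) and Fos (-0.79) stand to the left of the bulk of genes, Junb (0.00) in its middle and Ier2 (0.33) within it, right of the middle.

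In the model of group means alone, the SE of a log2 change against NC was 0.81 for Dusp1, 0.62 for Jun and 0.59 for Fos, but 0.15 for Junb. A p above the threshold does not show that the level was the same.

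The promoters of the members that were lower in replicate 2 in 11 of 11 groups are shown to let their sequences be set side by side. RefSeq promoter sequences (GRCm38.p6, the mm10 assembly, from 250 bases before to 50 after the start) were searched for 8 of the 10 members. Egr1 and Ier2 were not searched, so the motif counts do not cover them. The stretches are given 5′ to 3′ on the gene's strand, from position -200 to -21 relative to the start, or to -101 for Dusp1, and that of Zfp36, which lies in an annotated exon, is not shown. Capitals mark TGACNTCA (the cyclic AMP response element TGACGTCA and its variant TGACATCA), its shorter form TGACG on this strand, and TATAAA.
Fos (chr12:85473690-85473869, plus strand): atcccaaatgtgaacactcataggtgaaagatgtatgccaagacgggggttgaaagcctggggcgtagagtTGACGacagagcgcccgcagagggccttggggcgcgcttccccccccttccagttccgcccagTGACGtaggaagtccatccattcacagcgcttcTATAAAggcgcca
Jun (chr4:95052243-95052422, minus strand): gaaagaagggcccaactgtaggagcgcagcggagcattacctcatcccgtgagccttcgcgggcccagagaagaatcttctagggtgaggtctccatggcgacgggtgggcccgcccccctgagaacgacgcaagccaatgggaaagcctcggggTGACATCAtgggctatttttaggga
Klf6 (chr13:5861289-5861468, plus strand): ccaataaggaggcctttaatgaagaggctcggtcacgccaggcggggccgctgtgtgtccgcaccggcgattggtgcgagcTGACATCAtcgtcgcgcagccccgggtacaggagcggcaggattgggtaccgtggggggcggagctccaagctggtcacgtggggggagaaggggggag
Dusp1 (chr17:26508573-26508672, minus strand): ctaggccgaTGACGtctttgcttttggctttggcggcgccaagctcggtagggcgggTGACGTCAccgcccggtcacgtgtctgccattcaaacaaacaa

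TGACNTCA, searched on both strands over the 300 bases, occurred in 3 of the 8 members, Dusp1, Jun and Klf6, beside 8.83% of 32851 promoters. It began at -143 in Dusp1, at -119 in Klf6 and at -45 in Jun, counted from the start. TGACG occurred in Dusp1, Fos, Fosb and Junb, beside 20.8% of promoters, and within TGACGTCA at Dusp1 the motifs overlap. In Fos it began at -129 and -66, with TATAAA at -33. The CArG box, the site of SRF, was found in Zfp36, beside 1.63% of promoters, and the letters TGANTCA of the AP-1 site in 0 of these 8 windows, beside 7.81%. GGGCGG, the site of SP1, occurred in 7 of the 8, beside 35.7%. The motifs were chosen after the values were seen, and a match of letters is a description, not a bound site.

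Other genes of the same response were counted from a list of 42 further immediate early and primary response genes, of which 38 were tested. With DZNep 12 of them were called, 31.6% of the list, 6 higher and 6 lower, where 11.4% of all genes were called. Plk2, a polo-like kinase, rose from 997 and 897 normalized counts in NC to 6342 and 4578 (log2 change 2.51, SE 0.26, limma adjusted p 2.63e-05). Hbegf, which encodes a ligand of the EGF receptor and so feeds the ERK pathway, fell from 875 and 496 to 117 and 178 (log2 change -2.18, SE 0.25, limma adjusted p 5.27e-05). Phlda1 rose from 61 and 52 to 280 and 233 (log2 change 2.16, SE 0.43, limma adjusted p 0.00278). The median log2 change of the 38 genes was 0.23.

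With Valproate 5 of the 38 were called, 13.2% of the list, 2 higher and 3 lower, beside 5.28% of all tested genes. Fosl2, the gene of a further Fos family subunit of AP-1, rose from 28 and 23 to 72 and 72 (log2 change 1.47, SE 0.32, limma adjusted p 0.0108). Its NC values lay below the receptor gene median of 35.5. Hbegf fell to 303 and 226 (log2 change -1.33, SE 0.25, limma adjusted p 0.00429), and Atf3, a stress-induced factor of the ATF family, fell from 581 and 516 to 328 and 157 (log2 change -1.27, SE 0.26, limma adjusted p 0.00696). With Bromosporine 1 was called, beside 3.34% of all tested genes. It was Arc, which was lower at 1218 and 909 against 2772 and 1688 in NC (log2 change -1.04, SE 0.28, limma adjusted p 0.046). With MS023, where 0.973% of all tested genes were called, it was Trib1, a pseudokinase gene, lower at 79 and 68 against 192 and 201 (log2 change -1.41, SE 0.26, limma adjusted p 0.0153). With the other 6 compounds limma called none of the 38.

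Between replicate numbers the wider list lay on both sides of 0. Of the 38 genes, 12 were lower and 13 higher in replicate 2 at a limma adjusted p under 0.05. Over all tested genes 22.8% were lower and 52.6% differed in either direction. The median log2 difference of the 38 was 0.01, and none was called with the fold, beside 4.04% of all tested genes. Maff, a small MAF factor gene, lay lowest at -0.84 (SE 0.11, limma adjusted p 8.99e-05), beside Dusp2, a phosphatase gene related to Dusp1, highest at 0.86 (SE 0.18, limma adjusted p 0.00156).

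Genes of the surrounding machinery were counted in the same way. None of the 21 genes of ERK, p38 and JNK signalling and none of the 19 genes of the decay of AU-rich messages was called by limma with any compound, where 11.4% of all tested genes were called with DZNep, 5.28% with Valproate, 3.34% with Bromosporine and under 1% with each of the others. At an unadjusted p under 0.05 there were 7 of the 21 and 4 of the 19 with DZNep, beside 35.4% of all tested genes. Of 15 tested promoter-binding factors and AP-1 partners, 1 was called with DZNep and with Valproate, and 0 with the other compounds. Jdp2, which encodes a repressor that dimerizes with JUN proteins, was at 1506 and 886 in NC and fell to 306 and 321 with DZNep (log2 change -1.88, SE 0.25, limma adjusted p 0.000172) and to 602 and 354 with Valproate (log2 change -1.32, SE 0.25, limma adjusted p 0.00453).

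Across the 22 libraries, once the mean of each replicate number had been removed, the median Pearson r over the 45 pairs of members was -0.03, and it was 0.10 on the values as deposited. Fos and Jun reached 0.80 as deposited and 0.56 with the numbers removed. The genes most like Zfp36 among 15832 others were Zfp629 (Pearson r 0.958), Mmp11 (0.947) and Paqr8 (0.946). For Klf6 it was Nudt8 (0.929), for Ier2 Mif4gd (0.916), for Dusp1 Ppp4r4 (0.911) and for Fosb Zfp868 (0.907). These correlations share the groups and the normalization and are given as a description.

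The values have limits of annotation as well. Exons of Jun, Junb, Dusp1 and Zfp36 overlap exons of Junos, Prdx2, Ergic1 and Gm44710 on the opposite strand, and the counting was not stated to use strand, so their reads cannot be told apart there. Of the 31-base words of its transcript, Jun shared 6.39% with other genes, mostly Junos, and Zfp36 4.78%, while no other member shared more than 0.08%.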

How the data were processed

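RNA-seq of 22 libraries of E14 cells, 2 for each of 10 compounds and NC, was taken from the deposited table. The deposited values are scores, namely normalized read counts that the authors rounded to whole numbers. Libraries were prepared from poly(A) RNA captured on oligo-dT beads. The submitters' processing notes name mm10, Bowtie2 2.2.5 and RSEM, the study's methods also name TEtranscripts and EDASeq at its full setting, and the route that gave this table was not stated. Library totals were therefore nearly equal (38403767 to 38419709), and depth is unknown. A change shared by most genes would be removed by this step.

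Groups came from the sample titles and treatment labels, and 0 columns were unmatched. The filter kept 17275 of 18487 genes, those reaching 10 in 2 or more libraries. The model was fitted to log2(value + 1) by limma 3.58.1 (R 4.3.3), with 11 group means, a variance trend and 11 residual degrees of freedom. P-values were two-sided and adjusted by Benjamini-Hochberg within each contrast over all tested genes. A call needed an adjusted p under 0.05 and a fold change over 2. The F test compared the 11 groups together, and replicate 2 was compared with replicate 1 with group in the model. The scripts were tested on simulated data. The study's own test, DESeq2, was not used here because these values are not raw counts. A second deposited table, of the authors' group means, was not used.

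All 10 members are named in every comparison. From each further list, up to 3 called genes per compound with the largest absolute change and no overlap with NC are named, and, for likeness to a member, the genes with the highest Pearson r. The members, lists and rules were chosen with earlier results of these data known. Gene positions and transcripts came from GENCODE M21, promoters from RefSeq. The receptor genes and motifs were chosen after the values were seen, and the exceptions named for the replicate comparison, Maff and Dusp2, are the ends of their list. Alternatives were another pseudocount (10), no filter, a replicate block, rescaling by median ratios, another reference, a fit of 4 libraries, adjustment over all contrasts, and leaving out libraries.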

Additional observations from a re-analysis of the deposited data

How the results depend on the processing

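With the 2 libraries of a group as the only replication, calls of single members were fragile. The counts of members called did not change with a pseudocount of 10 or without the filter on low values, and with rescaling by median ratios only the F test count did, to 4. That rescaling moved the median of all genes by at most 0.05 on the log2 scale. With the replicate number as a block, 4 members were called with DZNep (Fos, Fosb, Jun and Zfp36). With Valproate 2 were called (Ier3 and Zfp36) and with MS023 1 (Ier3), where the counts without the block were 2, 1 and 0. Calls over all 17275 tested genes rose as well, from 1970 to 2606 with DZNep, 912 to 1487 with Valproate and 168 to 484 with MS023. By the limma F test 9 members varied over the 11 groups with the block, beside 5 without it. The share of all genes passing the F test with the block was not counted. The members that passed the F test only with the block were Fos (limma adjusted p 0.0323), Dusp1 (0.0237), Klf6 (0.000122) and Ier2 (0.000956). The block lowered the SE of a change against NC to 0.32 for Dusp1, 0.30 for Jun and 0.28 for Fos. At a limma adjusted p under 0.05, whatever the fold, it gave 8 of the 10 members with DZNep, 4 with Valproate and 3 with Bromosporine. It gave 1 each with IOX1 and MS023, and the share of all genes at this threshold was not counted. Under 2-fold, Dusp1 with DZNep then had a limma adjusted p of 0.0303 and Klf6 with Bromosporine of 0.000788. The block is no paired design by the labels. Over 55 pairs of groups, the differences between numbers correlated across genes from 0.05 to 0.30 (median 0.20), and 51 pairs exceeded 0.1. In a fit of only the 4 libraries of a comparison, 0 members were called with DZNep and 0 with Valproate, with limma adjusted p of 0.113 for Zfp36, 0.194 for Fosb and 0.168 for Ier3. With adjustment over all 10 contrasts, 0 were called with Valproate (Ier3 0.0517). Against the mean of the other 9 compounds, 1 was called with Bromosporine (Egr1, log2 change 1.63, limma adjusted p 0.0198), and with Valproate it was Fosb (log2 change -2.54) in place of Ier3 (0.94). Leaving out each library in turn, 1 to 2 members were called with DZNep and 0 with Valproate in all 4 cases, and Zfp36 with DZNep kept its call (log2 change -2.39 to -1.66). In the comparison of replicate numbers, without any one group, Dusp1 kept its call. Leaving out both NC libraries gave 4 members by the F test, where the share of all genes was not counted either.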
